A study of Homo sapiens with 4 samples.

Results

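A set of 10 genes of the lysosomal membrane, of lysosomal acidification and of the sorting of lysosomal enzymes was followed through a comparison of PRMT1 knockdown with control in MiaPaca-2 cells, a widely used line grown from a human pancreatic tumour. The genes are ATP6V1D, ATP6V1G1, ATP6AP2, OSTM1, MFSD8, SCARB2, LAMTOR1, SORT1, GNPTAB and GNPTG, 10 of 858 that the authors' deposited table holds. They were chosen by name and function from genes that this table lists, and the table lists only genes with an unadjusted p under 0.05. Their p-values and directions are therefore a description and were not tested again. RNA was sequenced from 4 samples, 2 with shPRMT1, a short hairpin RNA against the arginine methyltransferase PRMT1, and 2 with shNTC, the non-targeting control hairpin. All 4 samples are the same cell line, grown in DMEM with fetal bovine and horse serum, and the labels name no further hairpin and no rescue. The labels do not tell whether the replicates were separate cultures, so the spread behind the deposited p-values may be no more than technical.

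The lysosome is the acidic compartment in which cells break down proteins, lipids and glycans. Its low pH is made by the vacuolar ATPase, a rotary proton pump whose cytosolic V1 sector burns ATP and whose membrane V0 sector carries protons. Most soluble lysosomal enzymes reach it because a phosphotransferase in the Golgi starts a mannose-6-phosphate tag on their glycans, which receptors then recognise, while SCARB2 and SORT1 carry particular cargo without that tag. On the outer face of the lysosomal membrane the Ragulator complex holds the Rag GTPases, which bring the growth kinase mTORC1 to the lysosome when amino acids are plentiful. Pancreatic cancer cells are known to lean on lysosomal breakdown and recycling for nutrients.

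Each gene has a ratio of group levels, its log2 value, a p-value and a p adjusted by Benjamini-Hochberg. All of these come from the authors' deposited table, and the ratio's numerator is not named there. It was read as shPRMT1 over shNTC because the authors' deposited table puts PRMT1 itself at 0.356, and the opposite reading would turn every direction below. Values of single samples, and with them replicate spread, sequencing depth and expression level, were not analysed here. Whether the cells carry the markers of their label could not be checked for the same reason.

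Ratios below 1 were listed for 8 of the 10 genes and ratios above 1 for 2, MFSD8 and GNPTAB, in the authors' deposited table. None of the 10 had an adjusted p under 0.05, a threshold that 1 of 7640 tested genes (0.0131%) passed in the authors' deposited table, and their adjusted p-values ran from 0.364 to 0.442. All 10 had an unadjusted p under 0.05, as did 11.2% of the tested genes, since that is how the table was made. Among tested genes 6.56% were listed with a ratio below 1 and 4.67% with a ratio above 1. Of the 858 listed genes, 58.4% had a ratio below 1. An unadjusted p under 0.01 was given for 4 of the 10 genes (OSTM1, LAMTOR1, ATP6AP2 and GNPTG) and for 2.5% of all tested genes in the authors' deposited table. Among the 858 listed genes, from which the 10 were drawn, 191 had such a p. Differences of 0.5 or more in size on the log2 scale were listed for 3 of the 10 genes (MFSD8, LAMTOR1 and SCARB2) and for 2.67% of tested genes, and of 1 or more for MFSD8 alone and for 0.759% of tested genes. Of the 858 listed genes, 204 reached 0.5 and 58 reached 1. The median absolute log2 fold change was 0.40 over the 10 genes and 0.28 over the 858 genes of the authors' deposited table. The signed medians were −0.19 and −0.12. The genes were picked out of this table, so these shares are given beside the background and nothing is read from the difference.

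**Figure D1:**
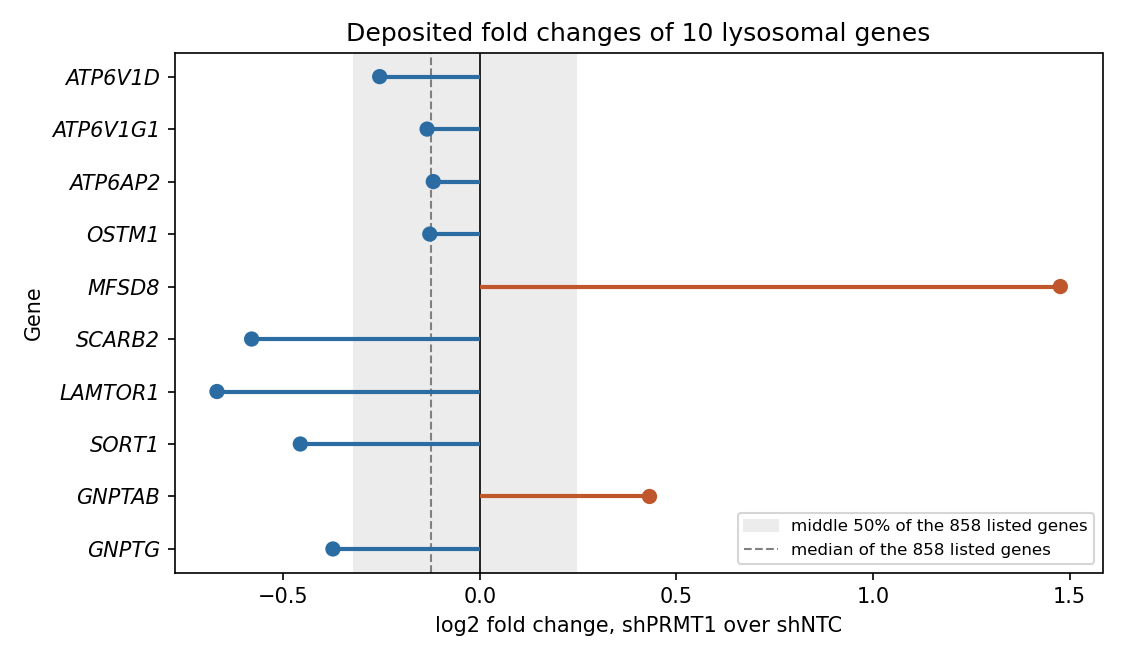
Log2 fold change (shPRMT1 over shNTC, horizontal axis) of the 10 lysosomal genes in the authors' deposited table, with blue for a ratio below 1 and orange for a ratio above 1. The grey band holds the middle 50% of the 858 listed genes and the dashed line their median of −0.12. MFSD8 at 1.48 lies farthest from 0, and ATP6V1D, ATP6V1G1, ATP6AP2 and OSTM1 lie inside the band.

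Members of the proton pump were listed with small differences, all on the lower side, as were 58.4% of all listed genes. ATP6V1D, the D subunit of the V1 sector and part of the central rotor that passes the turning force to the membrane sector, had a ratio of 0.838 (log2 −0.25, adjusted p = 0.410, unadjusted p = 0.0148) in the authors' deposited table. ATP6V1G1, the widely expressed G subunit of the peripheral stalk that keeps the V1 head from turning, had a ratio of 0.911 (log2 −0.13, adjusted p = 0.442, unadjusted p = 0.0498) in the authors' deposited table. That p is the closest of the 10 to the limit for listing, ranking 854 of 858, and genes on the far side of the limit have no values in the table. ATP6AP2, also called the prorenin receptor, is an accessory membrane protein that helps assemble the pump. Its ratio was 0.921 (log2 −0.12, adjusted p = 0.364, unadjusted p = 0.00478) in the authors' deposited table, the difference nearest to 0 among the 10 genes beside one of their lower p-values. In size, these differences are larger than 42.5%, 15.7% and 12.6% of those in the authors' deposited table, in the order given.

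Most of the pump's genes were not in the authors' deposited table. Listed were 2 of the 13 V1 genes, both described above, none (0) of the 11 V0 genes and 1 of 14 accessory and assembly genes, ATP6AP2. At the share of all tested genes these counts would be 1.46, 1.24 and 1.57. Such counts, here and for every list below, take each list gene as tested, so they are upper limits. The listed shares of the lists are lower limits for the same reason. The pump genes found were all members chosen from the listed genes, so they were sure to be counted. A gene outside the table either missed the p limit or was never tested, and the table does not tell these apart. The catalytic V1 subunits and the proton-carrying V0 ring thus have no value here. ATP6V1G1 has 5 processed pseudogenes in GENCODE 29 that carry its name, and how reads matching several copies were counted is not given in the sources used here, so its value is uncertain.

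The membrane proteins proper differed widely among themselves. OSTM1, the partner protein that stabilises the lysosomal chloride-proton exchanger CLCN7 and whose loss causes osteopetrosis, had a ratio of 0.916 (log2 −0.13) in the authors' deposited table. The authors' deposited table gave it p = 0.00377 (adjusted p = 0.364), the lowest p of the 10 genes beside one of their smallest differences. SCARB2, also called LIMP-2, spans the lysosomal membrane and carries an enzyme of lipid breakdown from the endoplasmic reticulum to the lysosome. Its ratio was 0.669 (log2 −0.58, adjusted p = 0.432, unadjusted p = 0.0221) in the authors' deposited table. CLCN7, the partner of OSTM1, was not among the listed genes.

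MFSD8, a membrane protein of the lysosome whose mutation causes the neuronal ceroid lipofuscinosis CLN7, stood at the other end. Its ratio of 2.78 (log2 1.48, adjusted p = 0.432, unadjusted p = 0.0227) ranks 10 from the top among the 858 genes of the authors' deposited table, and no other of the 10 genes lies past 1 on the log2 scale. Exons of MFSD8 overlap exons of ABHD18 on the opposite strand in GENCODE 29, and whether reads were counted by strand is not given in the sources used here, so whether reads from the shared stretch were split between both genes is unknown and the ratio is uncertain. ABHD18 was not listed itself.

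Of 51 lysosomal membrane genes, 7 were listed (13.7%, where the share of all tested genes would give 5.73) in the authors' deposited table, 6 with ratios below 1 and 1 above, with a median log2 fold change of −0.25. Chosen by name from the listed genes were 3 of these 7, OSTM1, SCARB2 and MFSD8, so these 3 were sure to be counted. Of all 858 listed genes, 58.4% had ratios below 1. The other listed membrane genes were TMEM106B, PLD3, TMEM9 and RNF13. TMEM106B, a lysosomal membrane protein linked to frontotemporal dementia, had a ratio of 0.492 (log2 −1.02, adjusted p = 0.364, unadjusted p = 0.00594) in the authors' deposited table, lower than any of the 10 genes. PLD3, a single-pass protein that is processed to a soluble lysosomal nuclease, was listed at log2 −0.30 and the endolysosomal ubiquitin ligase RNF13 at −0.25 in the authors' deposited table. TMEM9, a transmembrane protein of late endosomes and lysosomes, was at −0.14 there. None of the 7 had an adjusted p under 0.05. The common markers LAMP1, LAMP2 and CD63 were not listed.

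**Figure D2:**
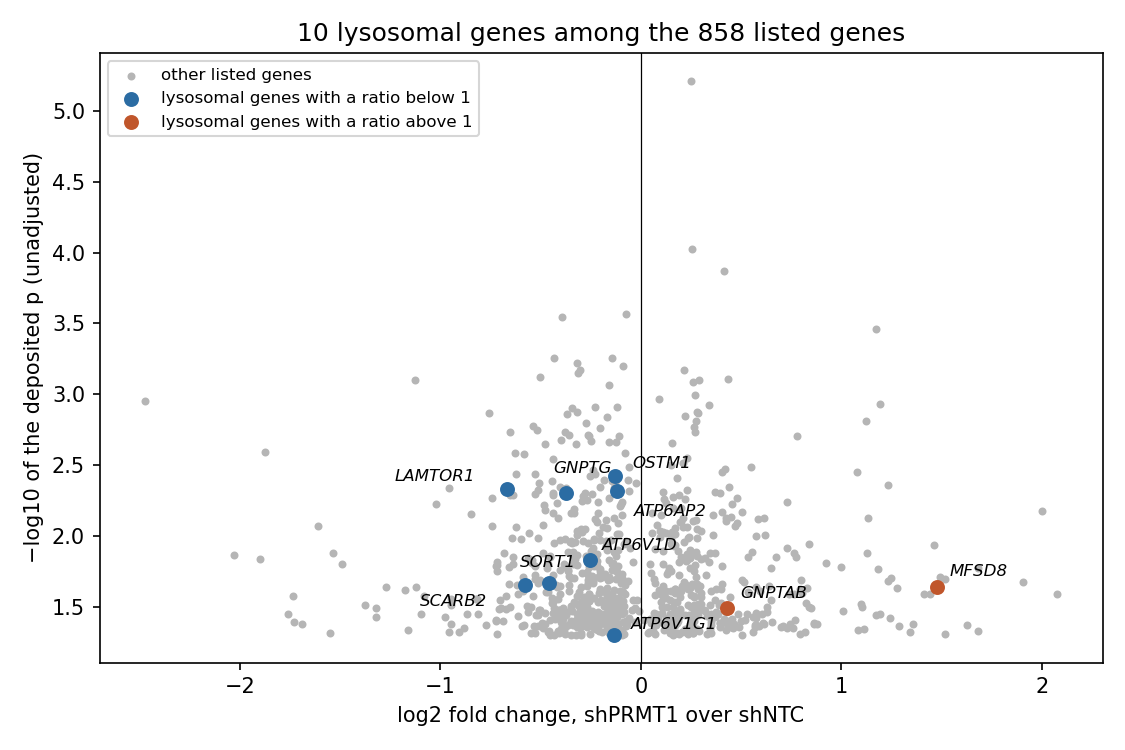
Each point is 1 gene of the authors' deposited table, with its log2 fold change (shPRMT1 over shNTC) on the horizontal axis and −log10 of its unadjusted p on the vertical axis. OSTM1 and ATP6AP2 combine differences near 0 with p-values under 0.01, while MFSD8, at a log2 fold change of 1.48, lies lower on the vertical axis.

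LAMTOR1 had the lowest ratio of the 10 genes. It encodes the lipid-anchored subunit that wraps around the rest of Ragulator and fixes it to the lysosomal membrane. Its ratio was 0.629 (log2 −0.67, adjusted p = 0.364, unadjusted p = 0.00469) in the authors' deposited table, ranking 55 from the lowest of 858. Its log2 difference was over 0.5 in size, a limit that 2.67% of tested genes reached, and its p was under 0.01, as for 2.5%. No other of the 10 genes met both limits, but TMEM106B, a listed membrane gene outside the 10, did. The share of tested genes that met both was not counted. The other 4 Ragulator subunits (LAMTOR2 to LAMTOR5), the 4 Rag GTPases and MTOR were not listed. In all, 1 of 35 genes of Ragulator, the Rag GTPases and their regulators was in the authors' deposited table (2.86%, against 11.2% of tested genes), so the difference in LAMTOR1 stands without a second listed gene of that pathway.

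The genes that tag lysosomal enzymes pointed in both directions. GNPTAB encodes the alpha and beta subunits of the Golgi phosphotransferase, which hold its catalytic site, and GNPTG encodes the gamma subunit, which helps the enzyme to act on many of its substrates. GNPTAB had a ratio of 1.35 (log2 0.43, adjusted p = 0.432, unadjusted p = 0.0322) and GNPTG one of 0.772 (log2 −0.37, adjusted p = 0.364, unadjusted p = 0.00501) in the authors' deposited table. Subunits of 1 enzyme were thus listed on opposite sides, and the difference between both genes was not tested. IGF2R, the large mannose-6-phosphate receptor, was also on the higher side, with a ratio of 1.14 (log2 0.19, adjusted p = 0.432, unadjusted p = 0.0371) in the authors' deposited table. These are 3 of 7 tagging and receptor genes listed. Of the 3, 2 are members chosen from the listed genes and were sure to be counted. The share of all tested genes would give 0.786. M6PR, the smaller receptor, and NAGPA, the enzyme that uncovers the tag, were not listed.

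Exons of GNPTG overlap exons of UNKL and of an antisense gene on the opposite strand in GENCODE 29, and those of GNPTAB overlap a 5S ribosomal RNA pseudogene on the opposite strand. ATP6V1D overlaps EIF2S1, a translation factor gene on the opposite strand, in the same way. How reads from these shared stretches were assigned is unknown, so the values of these 3 genes are uncertain to that extent. None of these partners was itself listed. No exon overlap was found in that annotation for the other 6 genes, namely ATP6V1G1, ATP6AP2, OSTM1, SCARB2, LAMTOR1 and SORT1.

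SORT1 encodes sortilin, a Golgi receptor that sends several proteins, among them the saposin precursor, to the lysosome without the mannose-6-phosphate tag. Its ratio was 0.729 (log2 −0.46, adjusted p = 0.432, unadjusted p = 0.0216) in the authors' deposited table. It was the 1 listed gene among 31 sorting receptors and coat proteins (3.23%, against 11.2% of tested genes). The related receptor SORL1, the GGA adaptors and all AP-1 and AP-3 adaptor genes on that list were not listed.

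Over all lists together, 30 of 302 distinct genes of the lysosome and its supply routes were listed, 20 of them below a ratio of 1 and 10 above it in the authors' deposited table. At 9.93% this is close to the 11.2% of all tested genes. With the 10 chosen genes left out the share is 6.85% (20 of 292, 12 lower and 8 higher). All 10 were chosen from listed genes, so leaving them out can only lower the share, and nothing is read from the fall. These shares take every list gene as tested, so they are lower limits, and on that footing 33.9 of the 302 would be listed at the table's own rate.

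**Figure D3:**
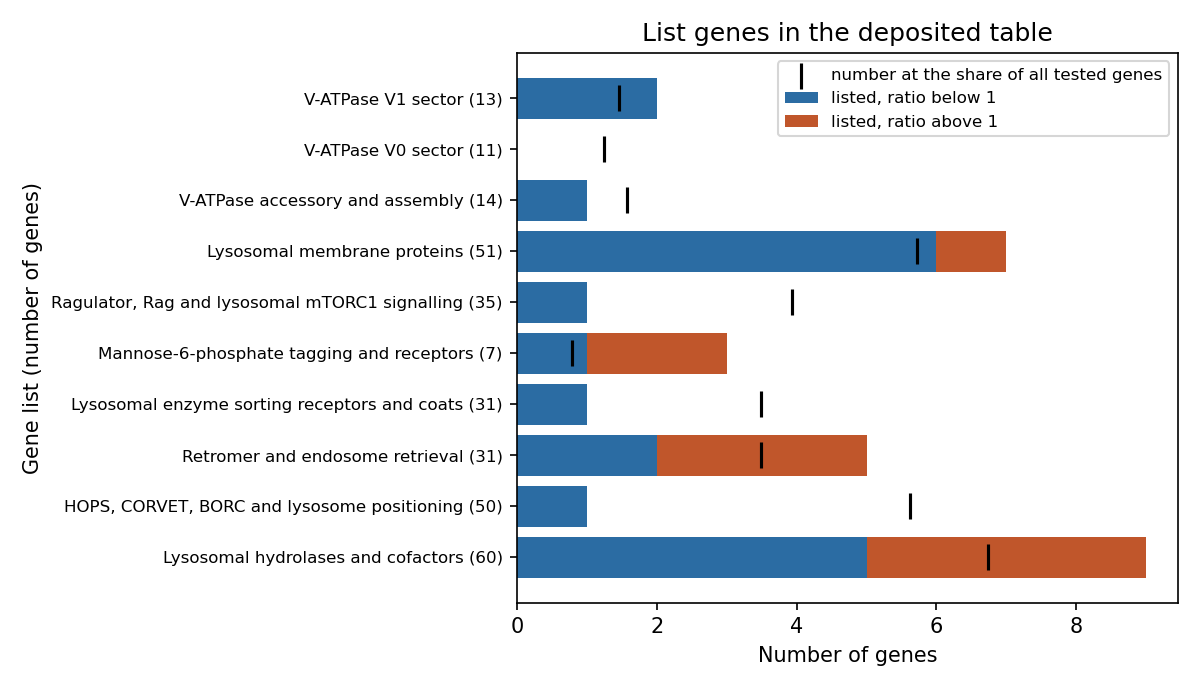
Number of genes of each list (list size in brackets) found in the authors' deposited table, split into ratios below 1 (blue) and above 1 (orange), with a black tick where the share of all tested genes would put the count. Counts exceed the tick most for lysosomal hydrolases (9 against 6.74) and for mannose-6-phosphate genes (3 against 0.786), where 2 of the 3 genes were chosen by name, and fall below it for the Ragulator, coat, lysosome positioning, V0 sector and V-ATPase accessory lists.

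Transcript length moves with direction in this table and is given beside the members for that reason. In 5 groups of increasing longest transcript, 67.6%, 76.3%, 63.9%, 47.9% and 37.9% of genes that the authors' deposited table lists had ratios below 1. LAMTOR1 (1346 nt) and ATP6V1G1 (1080 nt) fall in the shortest group, and ATP6V1D (1845 nt) and GNPTG (2400 nt) in the next. ATP6AP2 (3593 nt) is in the middle group. Both genes with a ratio above 1, MFSD8 (5109 nt) and GNPTAB (5701 nt), lie in the fourth group together with OSTM1 (4467 nt) and SCARB2 (5817 nt), whose ratios were below 1. SORT1 (7028 nt) is in the longest group and had a ratio below 1. At the shares of their own length groups 5.81 of the 10 genes would have a ratio below 1, and 8 had. The part of length in these values was not tested.

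**Figure D4:**
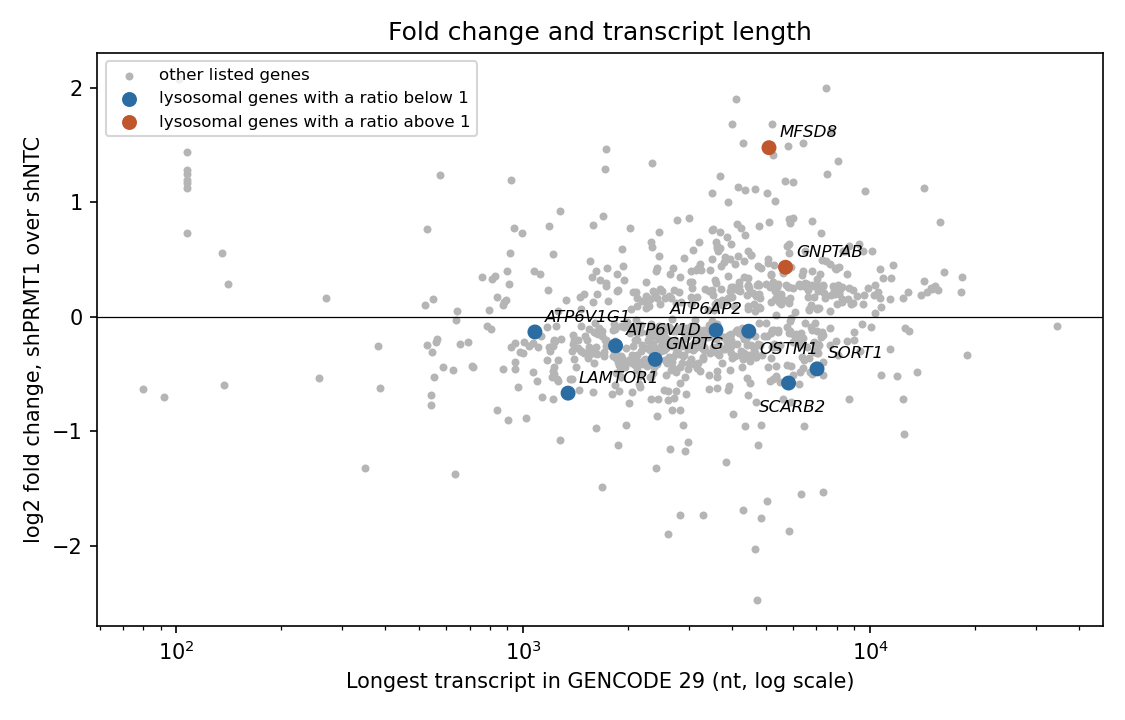
Log2 fold change in the authors' deposited table against the longest GENCODE 29 transcript (nt, log axis), with the 10 lysosomal genes in colour and other listed genes in grey. All coloured points up to ATP6AP2 at 3593 nt lie below 0, and the longer ones lie on both sides.

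Many lysosomal genes carry the CLEAR element, a binding sequence of the transcription factors TFEB and TFE3, close to their start, so the promoters of the 10 genes were read. RefSeq promoter windows of 300 bases (GRCh38.p14, 250 before and 50 from the annotated start) were found for all 10 genes, 12 windows in all because MFSD8 and SORT1 have more than 1. The CLEAR element was searched as the core TCACGTGA with a G before and a C after it, then as that core alone, and as the E-box CACGTG inside it. All 3 read the same on both strands and were counted once, and every match of a longer one is also a match of the shorter ones. The 3 genes with a match to any of these are shown so that the matches can be seen in place, with E-box and CLEAR letters in capitals, 5′ to 3′ on the gene's strand. The windows are chr9:114587519-114587818 on the plus strand for ATP6V1G1, chr16:1351681-1351980 on the plus strand for GNPTG and chr11:72103248-72103547 on the minus strand for LAMTOR1.
ATP6V1G1: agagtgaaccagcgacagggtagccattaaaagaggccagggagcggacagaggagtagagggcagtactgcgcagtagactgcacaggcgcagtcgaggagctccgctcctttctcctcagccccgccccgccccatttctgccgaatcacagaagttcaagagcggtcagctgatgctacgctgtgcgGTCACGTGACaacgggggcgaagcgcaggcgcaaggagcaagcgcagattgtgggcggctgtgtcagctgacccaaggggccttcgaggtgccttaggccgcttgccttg
GNPTG: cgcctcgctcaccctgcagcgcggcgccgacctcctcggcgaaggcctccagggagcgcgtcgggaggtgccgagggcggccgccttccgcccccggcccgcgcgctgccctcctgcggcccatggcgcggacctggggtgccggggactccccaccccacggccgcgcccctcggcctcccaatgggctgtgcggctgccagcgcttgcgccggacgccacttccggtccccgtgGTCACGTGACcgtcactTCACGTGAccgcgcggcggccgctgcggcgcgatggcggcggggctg
LAMTOR1: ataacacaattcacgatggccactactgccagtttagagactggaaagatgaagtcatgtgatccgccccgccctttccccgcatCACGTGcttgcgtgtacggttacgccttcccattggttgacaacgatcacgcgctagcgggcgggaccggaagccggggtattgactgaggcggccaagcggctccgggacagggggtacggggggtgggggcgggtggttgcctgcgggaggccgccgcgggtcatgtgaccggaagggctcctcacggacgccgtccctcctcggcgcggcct

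The full CLEAR element was present in 2 of the 10 genes, ATP6V1G1 (60 to 51 bases before the start) and GNPTG (14 to 5 before). By window that is 2 of 12, where 0.353% of all 35116 RefSeq windows of that length hold it. Of the 910 windows of genes that the authors' deposited table lists, 0.879% do. GNPTG holds the core TCACGTGA again just past its start, at bases 3 to 10 counted from 0 at the start. The core is found in 2 of the 12 windows, in 0.980% of all windows and in 1.65% of those of listed genes. LAMTOR1 has the E-box alone, 165 to 160 bases before its start. An E-box is thus in 3 of the 12 windows, in 7.26% of all windows and in 9.34% of those of listed genes. The ratios of these 3 genes in the authors' deposited table were 0.911, 0.772 and 0.629, in the order of the sequences. The windows of the other 7 genes held none of these letters, and 5 of those 7 also had ratios below 1 in the authors' deposited table, as had 58.4% of its 858 genes.

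An element of ETS factors common in promoters of broadly expressed genes, searched as CCGGAAG on both strands, was found in ATP6V1D, OSTM1, LAMTOR1 and GNPTG. It is present in 4 of the 12 windows, in 10.3% of all windows and in 19.5% of those of listed genes. A YY1 element, searched as AAGATGGCG on both strands, was in none of the 12 windows and in 1.75% of all. The ETS matches overlap no CLEAR or E-box match in these windows. Of the 12 windows, 10 had a G+C share above the median of all windows (58.7%), the exceptions being 1 window each of MFSD8 (50%) and SORT1 (45.7%). For 11 windows the bases from the start on lie within the first 400 bases of a GENCODE 29 transcript of that gene. The window of GNPTAB is the exception, so the absence of matches there bears on this window only. A match is a description of letters, and binding at these promoters was not measured.

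**Figure D5:**
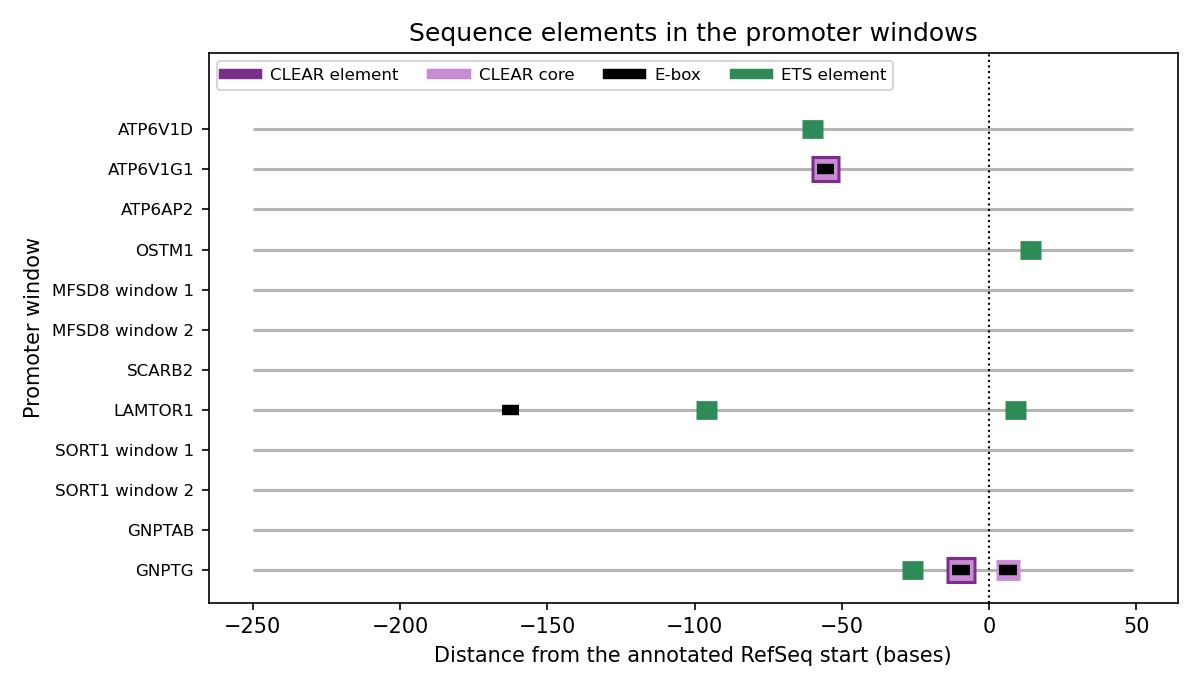
Positions of the searched elements in the 12 RefSeq promoter windows of the 10 genes, as distance in bases from the annotated start (dotted line), with each window drawn as a grey line. CLEAR elements lie within 60 bases of the start in ATP6V1G1 and GNPTG, and no element was found in the windows of ATP6AP2, MFSD8, SCARB2, SORT1 and GNPTAB.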

How the data were processed

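Total RNA of 4 MiaPaca-2 samples (2 shPRMT1, 2 shNTC) was sequenced; the labels' extraction text also describes a chromatin immunoprecipitation, and the samples were treated as RNA as their molecule and library kit say. Build hg19 and the tools edgeR 3.36.0, StringTie 2.2.1, HISAT2 2.2.1, deepTools and Trim Galore 0.6.7 are named per the submitters' processing notes, with no roles. For every gene the authors deposited a p-value, a q-value, a linear ratio (fold change) and the log2 of that ratio, and only genes with p under 0.05 are in the table. Test, normalization and filter: not given in the sources used here. No sample values were used, so depth is unknown and no test was run.

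Taking the adjustment as Benjamini-Hochberg, the number of tested genes (7640) was recovered from p, rank and adjusted p. Of 53 runs of equal adjusted p, 52 gave it within 0.01. Members and gene lists were chosen with earlier results of these data known. Lists were written out as whole complexes and pathways and matched by symbol, older symbol and gene identifier. All 10 members and the listed genes of the lists are named, except that the value of 1 gene is not reported here. Transcript lengths and overlaps came from GENCODE 29 (another build, so no coordinates; 846 of 858 genes matched by identifier) and promoters from RefSeq GRCh38.p14. A planned search for sorting signals in the proteins was not run. Steps were tested on simulated data. Python 3.11.15, numpy 2.4.6, pandas 2.3.3 and matplotlib 3.10.9 were used. Alternatives covered thresholds, a log2 shift of 0.1, name matching and shorter motifs.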

Additional observations from a re-analysis of the deposited data

How the results depend on the processing

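No paired analysis was possible because the deposited table holds no values of single samples, and for the same reason leaving out replicates, other count models and other filters were not run. The count of 0 members at an adjusted p under 0.05 became 10 at an unadjusted p under 0.05, 4 at an unadjusted p under 0.01 and 0 at an unadjusted p under 0.001. With an unadjusted p under 0.05 it was 3 where the log2 fold change was 0.5 or more in size and 1 where it was 1 or more. These thresholds set the counts. The number of members with a ratio above 1 was 2 as deposited and 2 with every log2 fold change raised or lowered by 0.1, although ATP6AP2, OSTM1 and ATP6V1G1 then came to −0.02, −0.03 and −0.03 after the rise, so a slightly larger offset common to all genes would turn them. Of the 30 list genes in the table, 9 had an unadjusted p under 0.01, and 5 of the 20 left without the 10 chosen genes. Such a p was given for 191 of all 858 listed genes, or 2.5% of tested genes. Matching by gene identifier, chosen after seeing the data, added WASHC3 and WASHC4 to the 28 found by symbol alone or with older symbols. Members with the CLEAR element numbered 2, with its core 2 and with the E-box 3. Depth, expression level and replicate spread are unknown, so no interval of any ratio can be given.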

Other observations

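Other routes into the lysosome were also present in the authors' deposited table. Of 31 genes of retromer and endosome retrieval, the machinery that returns sorting receptors such as sortilin to the Golgi, 5 were listed (16.1%, against 11.2% of tested genes), 3 with ratios above 1 and 2 below. By symbol only 3 were found, all with ratios above 1. The 2 below, WASHC3 and WASHC4, came in by gene identifier, a match chosen after seeing the data, so the share above that of tested genes rests on that choice. SNX27, an adaptor that selects cargo for retromer, had a ratio of 1.41 (log2 0.50, adjusted p = 0.432, unadjusted p = 0.0397) in the authors' deposited table. SNX5 and SNX2, sorting nexins that bend the endosomal membrane into tubules, were listed at log2 0.22 and 0.17 in the authors' deposited table. WASHC3 and WASHC4, subunits of the WASH complex that drives actin assembly on endosomes, were at log2 −0.40 (unadjusted p = 0.00211) and −0.14 in the authors' deposited table. Of 50 genes of HOPS, CORVET, BORC and lysosome positioning, 1 was listed (2%, against 11.2% of tested genes). It was the BLOC-2 subunit HPS3 at log2 −0.32 (adjusted p = 0.394, unadjusted p = 0.00983) in the authors' deposited table.

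Lysosomal hydrolases and their cofactors had 9 of 60 genes (15%, against 11.2% of tested genes) listed, 5 with ratios below 1 and 4 above in the authors' deposited table, with a median log2 fold change of −0.07. The share of all tested genes would give 6.74, and 58.4% of all listed genes had ratios below 1. HEXA, an enzyme subunit of ganglioside breakdown, was listed at log2 −0.31 in the authors' deposited table, and GM2A, the activator protein of the same pathway, at 0.35. NPC2, which binds cholesterol in the lysosome, was at −0.27, the acid lipase LIPA at −0.30 and the acid glucosidase GAA at −0.07 in the authors' deposited table. The proteases CTSV (0.48), SCPEP1 (0.44) and LGMN (0.21) were on the higher side of the authors' deposited table. None of the 15 listed genes of these 3 lists had an adjusted p under 0.05.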
